A study of Homo sapiens with 96 samples.

Results

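Methyl mercury is an organic mercury compound that crosses the placenta and the blood-brain barrier and is known as a toxicant of the developing nervous system. Its mercury atom binds thiol and selenol groups, so that glutathione, the thioredoxin system, selenoproteins and tubulin are among its known targets in cells. The data described here come from cultures exposed to methyl mercury at the concentration named IC5, set against cultures with no exposure. The members are libraries, taken by their labels, 8 of MeHg IC5 and 8 of control, 16 of the 96 libraries of the series.

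The cells were derived from the established human embryonic stem cell line H9 by way of neural progenitors that were differentiated into neuron and astrocyte co-cultures and sampled on day 10. Methyl mercury chloride was dissolved in dimethyl sulfoxide (DMSO), which made up 0.25% of the medium. Each group's 8 libraries are, per the labels, technical repeats within 1 experiment, and p-values therefore measure the spread between these libraries and not between experiments. Neither the concentration in molar units nor how long exposure lasted is given in the sources used here. The medium of all these groups contained a retinoic acid supplement, brain-derived and glial cell line-derived neurotrophic factors and a cyclic AMP analogue. Controls are labelled as not exposed, and whether their medium held DMSO is not given. An effect of methyl mercury and one of DMSO therefore cannot be told apart in MeHg IC5 against control. For that reason MeHg IC5 was also set against MeHg IC20/100, the same compound in the same vehicle at a level read here as the lower of both, and against the mean of 3 IC20/100 groups in DMSO (MeHg, chlorpyrifos and fluoxetine, 24 libraries, of which 8 are the MeHg IC20/100 ones).

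Polyadenylated RNA was counted per gene, and values are the deposited normalised counts, which are gene counts divided by 1 size factor per library. A library of MeHg IC5 held 14.95 to 26.02 M (1e6) reads, with a median of 18.1 M, against 16.94 to 26.89 M with a median of 19.5 M in control. The mitochondrially encoded share of counts had a median of 2.578% in MeHg IC5 and 2.46% in control. Replicate 4 of MeHg IC5 lay farthest from its group, with a root mean square log2 residual of 0.448. Calls of named genes against control that were lost without it are given below, as are the list counts for DNA replication and mitosis. Several other list counts of lower members against control shifted by less. Examples are the integrated stress response (18 to 16), p53 targets (10 to 9), cholesterol synthesis (8 to 6) and mesenchyme (4 to 3). Replicate 8 of MeHg IC20/100 stood apart more strongly, with a residual of 0.719. Neuronal and progenitor markers fitted the labelled culture. MAP2, a dendritic microtubule protein, averaged 15819 ± 631 in MeHg IC5 and 17969 ± 955 in control (SD, n = 8 each), and NES, the progenitor filament nestin, 14621 ± 921 and 15559 ± 995 in the same order of groups. GFAP, the defining astrocyte filament, was low at 25.4 ± 14.3 in MeHg IC5 and 25.7 ± 14.6 in control and is thus a defining marker near the filter on low values.

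Against control, 2197 of 20136 genes tested (10.9%) differed in MeHg IC5 at an adjusted p under 0.05 by limma with Benjamini-Hochberg adjustment. Of these, 976 (4.85%) were higher and 1221 (6.06%) were lower. Among calls of at least 1.5-fold the split was uneven, with 70 genes higher (0.348%) and 358 lower (1.78%). All 8 MeHg IC5 libraries lay above all 8 controls for 139 genes (0.69%) and below all 8 controls for 371 (1.84%). The median log2 fold change over all genes tested was 0.01. Of 132 named genes that were called in this comparison, 123 had the same direction in each of the 6 sequencing runs, every one of which held libraries of both groups. These genes were called in the same libraries, so this agreement follows in part from their choice and is not separate support. The share over all genes was not computed.

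**Figure D1:**
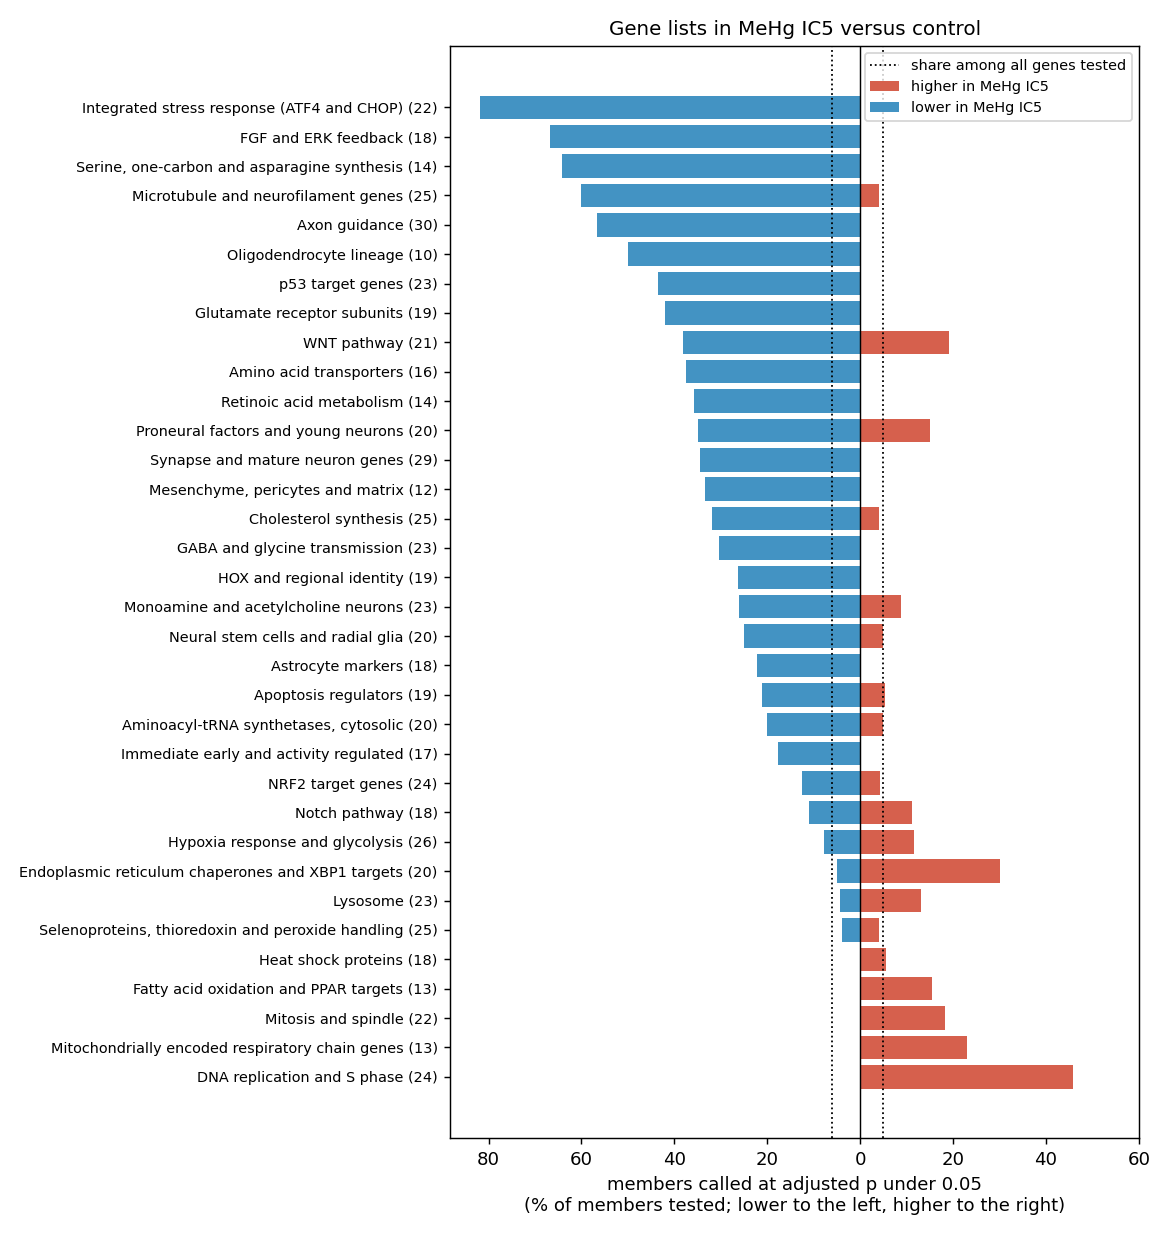
Share of the tested members of each gene list that were called in MeHg IC5 versus control, lower to the left and higher to the right, for lists with at least 10 members tested (number tested in brackets). Dotted lines mark the shares among all genes tested, 6.06% lower and 4.85% higher, and the longest bar is the integrated stress response list with 18 of 22 members lower.

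Feedback genes of fibroblast growth factor (FGF) signalling were among the largest falls. FGF ligands act through receptor tyrosine kinases and the kinase ERK, which induces the transcription factors ETV1, ETV4 and ETV5 and the inhibitors of the SPRY, SPRED and DUSP families, and these transcripts are widely read as a record of pathway activity. Of 18 list members tested, 12 were lower in MeHg IC5 than in control and 0 were higher, against 6.06% and 4.85% among all genes. The median log2 fold change of the list was -0.35, against 0.01 over all genes.

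ETV4 had 20.9 to 69 normalised counts in the MeHg IC5 libraries (median 49.9), against 98.4 to 187 (median 142) in control. No library of one group reached the range of the other, and the log2 fold change was -1.60 ± 0.16 (SE), adjusted p 2.91e-12 by limma. The gene lies at chr17:43527844-43579620 on the minus strand (GRCh38, GENCODE 29). SPRY4, an inhibitor of the same pathway, had 89.2 to 140 (median 114) in MeHg IC5, against 233 to 386 (median 257) in control, again without overlap (log2 -1.34 ± 0.12, adjusted p 3.67e-14 by limma). The ligand FGF17 had 18.5 to 50.7 (median 31.5) in MeHg IC5 and 57 to 85.9 (median 75) in control, and its groups were likewise separate (log2 -1.11 ± 0.14, adjusted p 9.99e-09 by limma). ETV5 had 33.9 to 78.8 (median 46) in MeHg IC5 and 73.7 to 556 (median 102) in control. Its ranges overlapped, since the controls were spread widely, and the log2 fold change was -1.70 ± 0.30 (adjusted p 1.93e-05 by limma).

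Smaller falls without overlap were seen for ETV1 (log2 -0.64), DUSP6, the ERK phosphatase (-0.59), FGFBP3, an FGF-binding protein (-0.56), SPRED3 (-0.54), SPRY2 (-0.32) and DUSP4 (-0.25). The receptors FGFR1 and FGFR2 were not called, at log2 fold changes of 0.06 and 0.11. FGFR3 was called at -0.33. The fall was thus shared by transcription factors, inhibitors and 1 ligand, with 1 of 3 receptors tested among the calls.

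Of the genes that handle retinoic acid, an enzyme that degrades it fell most. Retinoic acid, made from vitamin A, patterns the hindbrain and promotes neuronal differentiation, and enzymes of the CYP26 family break it down. CYP26B1 (chr2:72129238-72148038, minus strand) had 170 to 423 normalised counts (median 253) in MeHg IC5, against 753 to 954 (median 854) in control. Every MeHg IC5 library was below every control, with a log2 fold change of -1.73 ± 0.15 and an adjusted p of 2.15e-15 by limma. CRABP2, a carrier of retinoic acid to its receptors, had 252 to 410 (median 320) in MeHg IC5 and 501 to 691 (median 580) in control (log2 -0.85), and the receptor RARA 398 to 609 (median 511) and 622 to 789 (median 712) in the same order (log2 -0.49). In all, 5 of 14 members tested were lower and 0 higher. The other 2 were DHRS3, a retinal reductase (-0.55), and the receptor RXRG (-0.53). The RXRG call was lost without replicate 4 of MeHg IC5 (adjusted p 0.051) or replicate 6 of control (0.062), both by limma. CYP26A1 was not called, at 0.19.

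Among markers of neural stem cells and radial glia, 5 of 20 were lower and 1 was higher. FABP7, the fatty acid binding protein of radial glia, had 1185 to 1513 normalised counts (median 1410) in MeHg IC5 and 3226 to 3474 (median 3283) in control. Both groups were narrow and far apart (log2 -1.27 ± 0.07, adjusted p 1.08e-25 by limma). The other falls were small. They were PAX6 (log2 -0.33), NOTCH1 (-0.24), SOX9 (-0.23) and PTPRZ1 (-0.20). SOX2, the progenitor transcription factor, averaged 3682 ± 360 in MeHg IC5 and 3641 ± 300 in control and was not called (log2 -0.01). HES1, a repressor downstream of Notch, was higher at 590 ± 52.1 in MeHg IC5 and 475 ± 51.1 in control (log2 0.30). In bulk samples such as these, fewer cells of a type and less RNA per cell cannot be told apart.

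**Figure D2:**
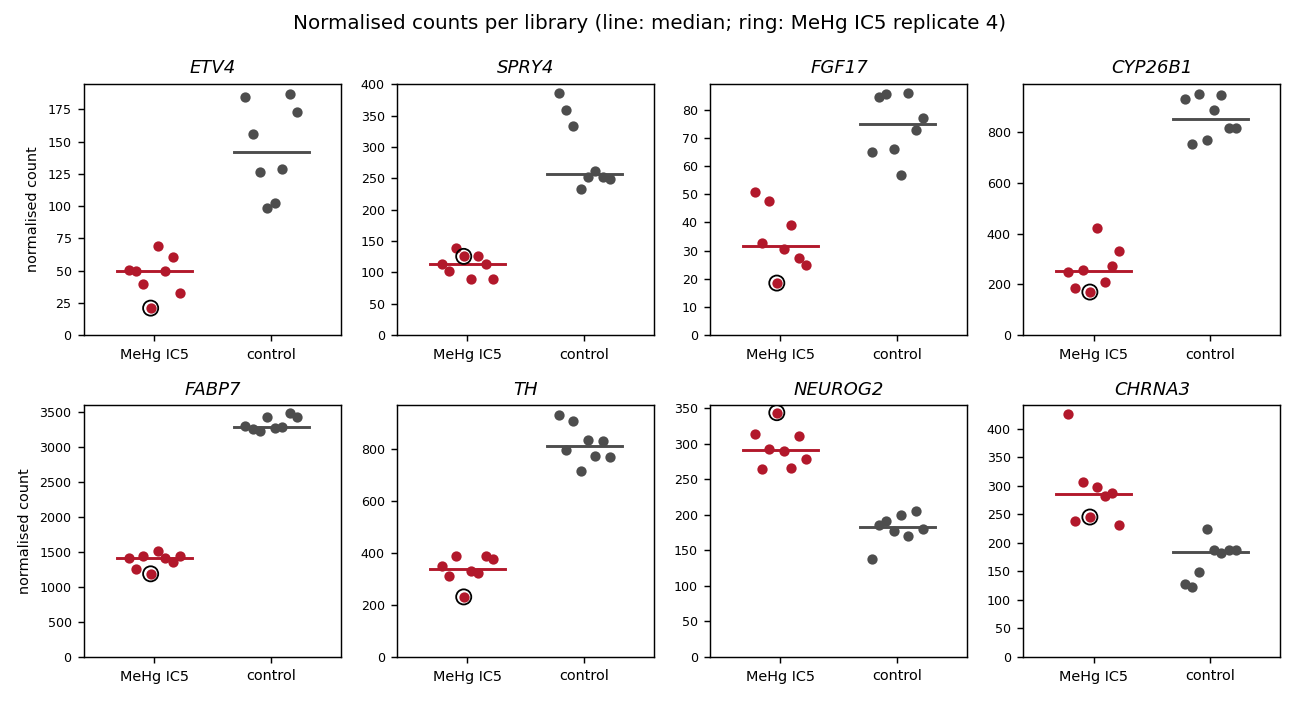
Normalised counts of 8 genes in each library, MeHg IC5 at left and control at right, on linear axes that start at 0, with a line at the median and a ring around replicate 4 of MeHg IC5. The groups do not overlap in any panel. MeHg IC5 lies below control in the first 6 (CYP26B1 medians 253 and 854, in that order) and above it for NEUROG2 (291 and 183) and CHRNA3 (285 and 184).

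Transcripts of the integrated stress response were lower in MeHg IC5 than in control. In this response, kinases that sense amino acid lack, misfolded proteins, heme lack or viral RNA phosphorylate the initiation factor eIF2alpha. Translation of the transcription factor ATF4 then rises, and ATF4 with its partners induces genes of amino acid supply and, under lasting stress, DDIT3 (CHOP) and CHAC1. Partners of ATF4 include C/EBP proteins, and their joint sites, called C/EBP-ATF or amino acid response elements, hold the core TGATGNAA. The promoters of CHAC1 and ASNS are shown here because both genes are induced through such elements and were called in this comparison, and that of MT2A, a metallothionein gene, because its metal response elements (core TGCACNC or TGCGCNC) bind the metal-sensing factor MTF1. The windows run from 250 bases before to 50 after a RefSeq start in GRCh38.p14 and are written 5′ to 3′ on the strand of the gene. CHAC1 is at chr15:40953221-40953520 (plus strand), ASNS at chr7:97872359-97872658 (minus strand) and MT2A at chr16:56608334-56608633 (plus strand). Capitals mark matches to the named core on either strand.
CHAC1: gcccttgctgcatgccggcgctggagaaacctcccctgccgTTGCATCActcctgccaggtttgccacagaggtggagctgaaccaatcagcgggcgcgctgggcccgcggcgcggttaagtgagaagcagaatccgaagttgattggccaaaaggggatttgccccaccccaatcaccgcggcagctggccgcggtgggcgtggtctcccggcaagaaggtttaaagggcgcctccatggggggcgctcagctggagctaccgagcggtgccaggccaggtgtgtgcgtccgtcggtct
ASNS: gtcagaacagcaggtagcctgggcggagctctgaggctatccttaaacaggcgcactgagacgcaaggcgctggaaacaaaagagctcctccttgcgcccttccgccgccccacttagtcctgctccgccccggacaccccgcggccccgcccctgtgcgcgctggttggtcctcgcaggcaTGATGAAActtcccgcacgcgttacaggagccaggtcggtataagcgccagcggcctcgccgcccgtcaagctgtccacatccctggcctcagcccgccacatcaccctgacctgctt
MT2A: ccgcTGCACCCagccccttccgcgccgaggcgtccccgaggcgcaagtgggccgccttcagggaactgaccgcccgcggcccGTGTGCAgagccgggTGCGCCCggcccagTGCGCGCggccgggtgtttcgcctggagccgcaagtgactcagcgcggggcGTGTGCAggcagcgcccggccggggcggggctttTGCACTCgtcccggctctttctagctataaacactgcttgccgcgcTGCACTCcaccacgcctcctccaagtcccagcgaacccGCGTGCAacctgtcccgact
The ASNS window holds 1 match on the gene's own strand, and the CHAC1 window 1 match on the opposite strand. MT2A holds 8 matches to the metal response core. TGATGNAA, searched on both strands, occurs in 3.62% of 35116 RefSeq promoter windows and in at least 1 window of 4.46% of 27305 genes. Of 21 stress response genes with a window, 7 had a match (ATF3, CEBPG, CHAC1, ASNS, FGF21, JDP2 and SLC3A2). The metal core is short and occurs in 29.6% of windows. A match is a description of these letters and not evidence of binding.

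Of 22 stress response genes tested, 18 were lower in MeHg IC5 than in control and 0 were higher, with a median log2 fold change of -0.57. CHAC1, a glutathione-degrading enzyme, had 163 to 215 normalised counts (median 179) in MeHg IC5, against 294 to 461 (median 371) in control. The groups were separate (log2 -1.01 ± 0.11, adjusted p 6.63e-11 by limma). The transcription factor ATF5 had 599 to 832 (median 741) in MeHg IC5 and 1059 to 1665 (median 1321) in control, also separate (log2 -0.87 ± 0.10, adjusted p 4.92e-10 by limma). TRIB3, a pseudokinase that restrains ATF4, had 184 to 321 (median 274) in MeHg IC5 and 349 to 663 (median 483) in control (log2 -0.83 ± 0.13, adjusted p 5.61e-07 by limma). The same separation held for JDP2, which averaged 106 ± 19.7 in MeHg IC5 and 211 ± 43.4 in control, and for PCK2 (log2 -0.83), CEBPB (-0.70), SESN2 (-0.57), ASNS, the asparagine synthetase (-0.52), and PPP1R15A, the subunit that directs eIF2alpha dephosphorylation (-0.33).

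The remaining members were less uniform. STC2 was lower with wide spread, 415 ± 174 in MeHg IC5 and 776 ± 250 in control (log2 -0.93). DDIT3 averaged 348 ± 45.4 in MeHg IC5 and 560 ± 106 in control (log2 -0.68). GDF15, a secreted stress cytokine, averaged 74.7 ± 31.4 in MeHg IC5 and 236 ± 169 in control, and its adjusted p of 0.05 by limma lay at the threshold. Its call was lost without any single library other than replicate 2 of MeHg IC5 and replicates 6 and 7 of control (adjusted p up to 0.14 by limma). The ATF4 transcript itself fell little, at 4829 ± 166 in MeHg IC5 and 5447 ± 236 in control (log2 -0.17, adjusted p 0.0417 by limma). That call was lost without replicate 1, 4, 5, 6 or 8 of MeHg IC5 or replicate 1, 2, 3, 5 or 8 of control (adjusted p up to 0.10 by limma).

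Genes that supply amino acids moved in the same direction. Of 14 genes of serine, one-carbon and asparagine synthesis, 9 were lower and 0 higher. ALDH1L2, a mitochondrial folate enzyme, had 367 to 476 normalised counts (median 434) in MeHg IC5 and 605 to 801 (median 719) in control (log2 -0.73). SHMT2, the mitochondrial serine hydroxymethyltransferase, had 2147 to 2977 (median 2748) in MeHg IC5 and 3112 to 4088 (median 3843) in control (log2 -0.47). Neither gene showed overlap. Of 16 amino acid transporters 6 were lower and 0 higher, among them SLC7A5, the large neutral amino acid carrier, with 2644 ± 394 in MeHg IC5 and 4408 ± 836 in control (log2 -0.72), and the glycine carrier SLC6A9 with 258 ± 48.7 and 435 ± 48.6 in the same order (log2 -0.74). Of 20 cytosolic tRNA synthetases 4 were lower and 1 higher. The alanine enzyme AARS1 changed most, at log2 -0.41. Several of these genes are on more than 1 list, so the counts are not independent of each other.

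Transcripts controlled by p53, the DNA damage response factor, were also lower for 10 of 23 members, with 0 higher. CDKN1A, which encodes the cell cycle inhibitor p21, had 908 to 1549 normalised counts (median 1374) in MeHg IC5 and 1648 to 2950 (median 2206) in control. The groups did not overlap (log2 -0.73 ± 0.13, adjusted p 1.85e-05 by limma). FAS, a death receptor, averaged 30.4 ± 8.69 in MeHg IC5 and 53.8 ± 4.18 in control (log2 -0.86), and PMAIP1, which promotes apoptosis, 191 ± 29.2 and 269 ± 38.8 in the same order (log2 -0.52). Chaperones of the endoplasmic reticulum went the other way by small amounts. Of 20, 6 were higher (HSPA5, HSP90B1, PDIA4, PDIA6, CALR and DNAJB11) and 1 lower (HERPUD1). HSPA5, the main chaperone of this compartment, had 6331 to 6944 (median 6773) in MeHg IC5 and 5645 to 6232 (median 5889) in control. All 8 MeHg IC5 libraries were above all controls, yet the log2 fold change was only 0.19 (adjusted p 0.000141 by limma). HERPUD1 averaged 796 ± 206 in MeHg IC5 and 1134 ± 362 in control, and its call was lost without replicate 4 of MeHg IC5 (adjusted p 0.092) or replicate 1 (0.057) or 3 (0.065) of control, all by limma.

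Against MeHg IC20/100, in which the vehicle was the same, the lists of the stress response, amino acid supply and p53 targets had higher members and none lower, and reticulum chaperones were again higher. The stress response list had 15 of 22 members higher in MeHg IC5 and 0 lower, where 2.58% of all genes were higher and 2.6% lower (1042 genes, 5.17%, in either direction). CHAC1 averaged 182 ± 17.1 in MeHg IC5, against 115 ± 27.5 in MeHg IC20/100 (log2 0.67 ± 0.11, adjusted p 1.69e-05 by limma). ATF5 averaged 726 ± 85.2 and 403 ± 97 in the same order (log2 0.87), and CEBPB 75.1 ± 8.57 and 35.7 ± 8.73 (log2 1.05). All 8 MeHg IC5 libraries were above all 8 of MeHg IC20/100 for each of these 3 genes, as they were for 0.228% of all genes. The MeHg IC5 means therefore lay between the MeHg IC20/100 and control means for CHAC1, ATF5 and CEBPB.

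The cystine carrier SLC7A11, which feeds glutathione synthesis, showed the largest such difference among the named stress genes. Its counts were 409 to 716 (median 567) in MeHg IC5, with a mean of 571 ± 115, against a mean of 217 ± 72.2 in MeHg IC20/100 (log2 1.43 ± 0.13, adjusted p 3.01e-13 by limma). No MeHg IC5 library was as low as any MeHg IC20/100 library. Against control, at 728 ± 129, it was only slightly lower (log2 -0.41, adjusted p 0.0311 by limma), and that call was lost without replicate 3, 5 or 7 of MeHg IC5 or replicate 1, 2, 3 or 5 of control (adjusted p up to 0.078 by limma).

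Of the other lists, serine and one-carbon synthesis had 8 of 14 members higher than in MeHg IC20/100, amino acid transporters 7 of 16, tRNA synthetases 7 of 20, p53 targets 6 of 23 and reticulum chaperones 8 of 20, with 0 lower in each. PSAT1, a serine synthesis enzyme, averaged 3356 ± 219 in MeHg IC5 and 2477 ± 287 in MeHg IC20/100 (log2 0.45). MTHFD2 averaged 643 ± 48.8 and 460 ± 53 in the same order (log2 0.49), and both genes were without overlap. CDKN1A averaged 1333 ± 201 in MeHg IC5 and 867 ± 131 in MeHg IC20/100 (log2 0.60). Against the mean of the 3 IC20/100 groups in DMSO, 1572 genes (7.81%) were called, 796 higher (3.95%) and 776 lower (3.85%), of which 0.407% of all genes tested were at least 1.5-fold higher and 0.427% at least 1.5-fold lower. The same lists had 16 of 22, 10 of 14, 8 of 16, 9 of 20, 10 of 23 and 10 of 20 members higher there. These counts share the MeHg IC20/100 libraries with those before and are not independent of them.

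The comparison with MeHg IC20/100 depends on how the spread is estimated. A fit of only the 16 libraries compared called 23 genes, and 212 without replicate 8 of MeHg IC20/100, against 1042 in the fit of 88 libraries. In the 16-library fit the stress response list had 4 members higher, and 11 without that replicate. Serine and one-carbon synthesis had 2 (6), amino acid transporters 2 (4), tRNA synthetases 0 (1), p53 targets 0 (5) and reticulum chaperones 0 (6), with the count without that replicate in brackets.

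**Figure D3:**
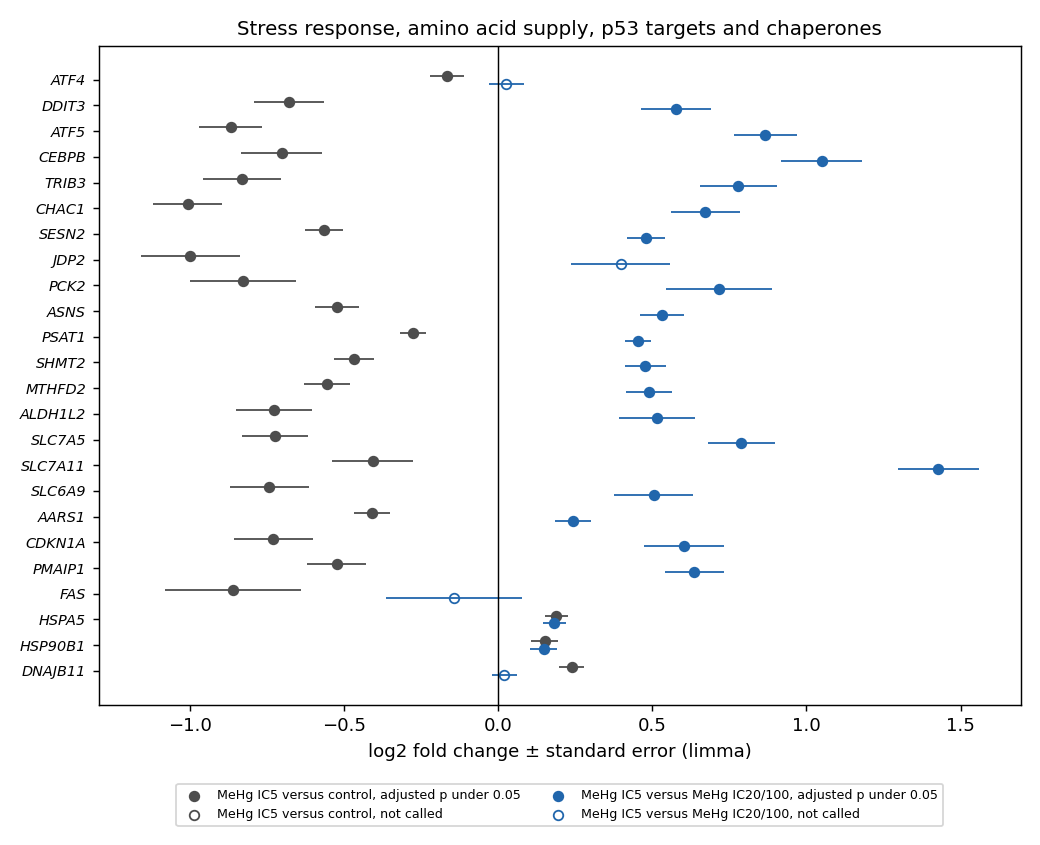
Log2 fold changes with standard errors (limma) of 24 genes of the stress response, amino acid supply, p53 targets and chaperones, for MeHg IC5 versus control in grey and versus MeHg IC20/100 in blue, filled where the adjusted p is under 0.05. Most genes lie left of 0 in grey and right of 0 in blue, such as CHAC1 at -1.01 and 0.67, while HSPA5 lies right of 0 in both (0.19 and 0.18).

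Genes of metal binding and thiol defence changed little against control. Metallothioneins are small cysteine-rich proteins that bind zinc, copper, cadmium and mercury. Of 11 genes on that list 7 passed the filter on low values, and 4 of the others were at 0 in all 16 libraries. MT2A had 12.9 to 28.9 normalised counts (median 21.3) in MeHg IC5 and 6.51 to 20.4 (median 13.1) in control. The groups overlapped, and the log2 fold change of 0.60 ± 0.19 had an adjusted p of 0.0239 by limma. The call was lost without replicate 3 or 6 of MeHg IC5 or replicate 1, 2 or 5 of control (adjusted p up to 0.084 by limma). It was also lost with DESeq2 (adjusted p 0.062) and in a limma fit of only the 16 libraries (adjusted p 0.23). MT1X averaged 9.55 ± 3.72 in MeHg IC5 and 6.59 ± 4.57 in control and was not called. MT3, the brain metallothionein, was lower, with 10.5 to 24.1 (median 19.1) in MeHg IC5 and 25.2 to 43.5 (median 25.8) in control (log2 -0.58, adjusted p 0.0204 by limma). The groups were separate by a small margin, and the call was lost without replicate 5 of MeHg IC5 (adjusted p 0.095) or replicate 8 of control (0.067), both by limma. Against MeHg IC20/100, 2 of the 7 tested were lower and 0 higher. MT3 was lower at log2 -0.62, a call lost in 6 of 27 alternatives. MT1F was lower at log2 -1.22, with at most 3.69 normalised counts in any MeHg IC5 library. At counts this low, counting error is a large part of the spread.

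NRF2 induces antioxidant genes when thiols of its inhibitor KEAP1 are modified. Of 24 of its targets tested, 1 was higher and 3 were lower. HMOX1, heme oxygenase, averaged 54.6 ± 10.2 in MeHg IC5 and 59.3 ± 12.2 in control, NQO1 131 ± 10.1 and 112 ± 9.13, and TXNRD1, the thioredoxin reductase, 1622 ± 230 and 1450 ± 154, each in the same order. None of the 3 was called. The higher gene was PGD (log2 0.11), and the lower ones were SLC7A11, TKT (-0.24) and AKR1C1 (-0.19). The AKR1C1 call, at an adjusted p of 0.0482 by limma, was lost without any single library other than replicates 1, 2 and 6 of MeHg IC5 and replicate 6 of control (adjusted p up to 0.175). The PGD call was lost without replicate 4, 5 or 7 of MeHg IC5 or replicate 1, 2, 3 or 6 of control (adjusted p up to 0.10 by limma). Of 25 selenoproteins, thioredoxin and peroxide genes, PRDX6 was higher (log2 0.23) and SELENON lower (-0.17). Among 18 heat shock genes only DNAJB1 was called, at log2 0.18 and an adjusted p of 0.0474 by limma. That call was lost without any single library other than replicate 5 of MeHg IC5 and replicates 2, 5 and 7 of control (adjusted p up to 0.10 by limma). These shares against control are near those of all genes. Against MeHg IC20/100, 2 of 24 NRF2 targets were higher and 0 lower. Against the mean of the 3 IC20/100 groups in DMSO, 4 of 24 were higher and 0 lower, where 3.95% of all genes were higher. Among them were SLC7A11 (log2 1.51), NQO1 (0.42) and HMOX1 (0.46), and HMOX1 lost its call in 7 of 44 alternatives.

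Structural genes of neurons were lower as a group. Tubulins form the microtubules of the axon, and neurofilaments set its calibre. Of 25 genes of this list 15 were lower and 1 higher, with a median log2 fold change of -0.17. TUBB4A, a neuronal beta tubulin, had 1187 to 1546 normalised counts (median 1426) in MeHg IC5 and 1707 to 2108 (median 1915) in control. The groups were separate (log2 -0.41 ± 0.04, adjusted p 3.9e-12 by limma). TUBB3, which marks young neurons, had 17230 to 19751 (median 18348) in MeHg IC5 and 19320 to 23985 (median 21501) in control, with a small overlap (log2 -0.19). TUBA1A, an alpha tubulin gene, averaged 93512 ± 4196 in MeHg IC5 and 106040 ± 6400 in control (log2 -0.17). The neurofilament gene NEFL had 1819 to 2041 (median 1956) in MeHg IC5 and 2433 to 2609 (median 2513) in control, without overlap (log2 -0.38 ± 0.03, adjusted p 4.33e-15 by limma). PRPH, a peripheral filament, fell more from a low level, to 39.9 ± 12.6 in MeHg IC5 against 78.1 ± 13 in control (log2 -0.99). NEFH was the exception at log2 0.33, and that call was lost without replicate 2, 4, 6 or 7 of MeHg IC5 or replicate 1, 3, 4 or 6 of control (adjusted p up to 0.10 by limma). Tubulin genes are close copies of each other, so reads may have been split between them.

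Tubulins also differed from the same compound at IC20/100. TUBB4A averaged 1411 ± 112 in MeHg IC5 and 1748 ± 124 in MeHg IC20/100, without overlap (log2 -0.33 ± 0.04, adjusted p 4.09e-08 by limma). TUBB2A was lower at log2 -0.34, TUBA1A at -0.26 and TUBB3 at -0.23. NEFL did not follow, at 1939 ± 83.1 in MeHg IC5 and 1931 ± 121 in MeHg IC20/100 (log2 0.01). Over the whole list, 8 of 25 members were lower and 1 higher than in MeHg IC20/100. In the fit of only these 16 libraries 0 were lower, and 6 without replicate 8 of MeHg IC20/100.

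Axon guidance receptors and their ligands steer growing axons. Of 30 such genes, 17 were lower and 0 higher than in control. Against MeHg IC20/100, 3 of the 30 were lower and 2 higher, with a median log2 fold change of -0.03. Among all genes 2.6% were lower and 2.58% higher there. Against the mean of the 3 IC20/100 groups in DMSO, 5 of the 30 were lower and 1 higher. ROBO3, which lets commissural axons cross the midline, had 2814 to 3540 normalised counts (median 3187) in MeHg IC5 and 4588 to 5283 (median 4695) in control. The groups were separate (log2 -0.61 ± 0.05, adjusted p 4.91e-15 by limma). Against MeHg IC20/100, at 5048 ± 807, it was lower by a like amount (log2 -0.66 ± 0.05, adjusted p 1.29e-15 by limma), again with no overlap. SEMA3D, a secreted repellent, averaged 48.7 ± 7.33 in MeHg IC5 and 90.4 ± 19.8 in control (log2 -0.83). The netrin receptor UNC5B averaged 357 ± 64 in MeHg IC5 and 632 ± 148 in control (log2 -0.80), but was higher than in MeHg IC20/100, at 194 ± 41.1 (log2 0.86). ROBO3 and UNC5B thus had opposite signs against MeHg IC20/100.

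Transmitter genes were mostly lower where they were called. TH, the rate-limiting enzyme of dopamine synthesis, had 230 to 389 normalised counts (median 339) in MeHg IC5 and 713 to 931 (median 812) in control. Every MeHg IC5 library was below every control (log2 -1.28 ± 0.09, adjusted p 2.75e-19 by limma). It was also lower than in MeHg IC20/100, at 461 ± 124 (log2 -0.43 ± 0.09, adjusted p 0.000761 by limma), where the groups overlapped. DBH, which makes noradrenaline from dopamine, was low in both, at 9.55 ± 2.84 in MeHg IC5 and 11.2 ± 6.59 in control, and was not called. It averaged 28.6 ± 9.17 in MeHg IC20/100, above all MeHg IC5 libraries (log2 -1.36 ± 0.21 for MeHg IC5, adjusted p 3.39e-06 by limma).

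For acetylcholine, the vesicle carrier SLC18A3 averaged 19.4 ± 6.59 in MeHg IC5 and 36.9 ± 4.31 in control (log2 -0.89), and the degrading enzyme ACHE 114 ± 24.7 and 179 ± 15.6 (log2 -0.65), both without overlap. The choline carrier SLC5A7 was lower at log2 -0.41, a call lost without replicate 6 of MeHg IC5 (adjusted p 0.058) or replicate 1 of control (0.056), both by limma. The nicotinic receptor subunit CHRNA3 rose, with 232 to 426 (median 285) in MeHg IC5 and 123 to 224 (median 184) in control, without overlap (log2 0.77 ± 0.14, adjusted p 1.69e-05 by limma). TPH1, a serotonin synthesis enzyme, was higher at log2 0.40. In all, 2 of 23 members of the monoamine and acetylcholine list were higher and 6 lower.

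Of 19 glutamate receptor subunits 8 were lower and 0 higher, with a median of -0.46. GRIN2D, an NMDA receptor subunit of early development, had 547 to 757 normalised counts (median 733) in MeHg IC5 and 951 to 1091 (median 1026) in control. The groups were separate (log2 -0.53 ± 0.06, adjusted p 8.62e-11 by limma). The kainate receptor subunits GRIK1 (log2 -0.54) and GRIK3 (-0.46) and the obligate NMDA subunit GRIN1 (-0.59) were also without overlap. GRIN3A averaged 144 ± 16.9 in MeHg IC5 and 216 ± 34 in control (log2 -0.58), and the metabotropic receptor GRM3 110 ± 41.6 and 207 ± 88.6 (log2 -0.88). GRIN2D and GRIN3A were lower than in MeHg IC20/100 too, at log2 -0.25 and -0.56. Of 23 genes of GABA and glycine transmission 7 were lower and 0 higher than in control. Against MeHg IC20/100, 1 of the 23 was lower and 0 higher. TFAP2B, a transcription factor of inhibitory neurons, averaged 4236 ± 165 in MeHg IC5 and 5527 ± 140 in control (log2 -0.39). GABRG3, a GABA receptor subunit outside that list, had 51.9 to 91.2 (median 71.2) in MeHg IC5 and 124 to 411 (median 162) in control (log2 -1.38).

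Of 29 synapse genes 10 were lower and 0 higher. SYN3, a vesicle protein, averaged 165 ± 24.2 in MeHg IC5 and 270 ± 30.5 in control (log2 -0.70). DLG4, the postsynaptic scaffold PSD-95, averaged 2003 ± 172 and 2642 ± 204 in the same order (log2 -0.38), and SNAP25, a fusion protein, 586 ± 79.4 and 713 ± 52.6 (log2 -0.29). NPTX2, a secreted pentraxin that gathers AMPA receptors and is not on that list, was higher at 260 ± 33.5 in MeHg IC5 and 163 ± 30.2 in control, without overlap (log2 0.68 ± 0.08, adjusted p 4.9e-10 by limma).

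Of 17 immediate early and activity-regulated genes tested, 3 were lower and 0 higher. VGF, a neurotrophin-induced secreted precursor, had 312 to 413 normalised counts (median 352) in MeHg IC5 and 449 to 634 (median 577) in control, without overlap (log2 -0.67 ± 0.08, adjusted p 5.71e-10 by limma). BDNF, a neurotrophin, had 11.9 to 22.8 (median 18.1) in MeHg IC5 and 23 to 38.3 (median 32.4) in control (log2 -0.81). ARC was lower at log2 -0.60. Against MeHg IC20/100, VGF was lower at log2 -0.55 and BDNF at -0.62. FOS, JUN and EGR1 were not called, at -0.15, 0.01 and -0.25.

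**Figure D4:**
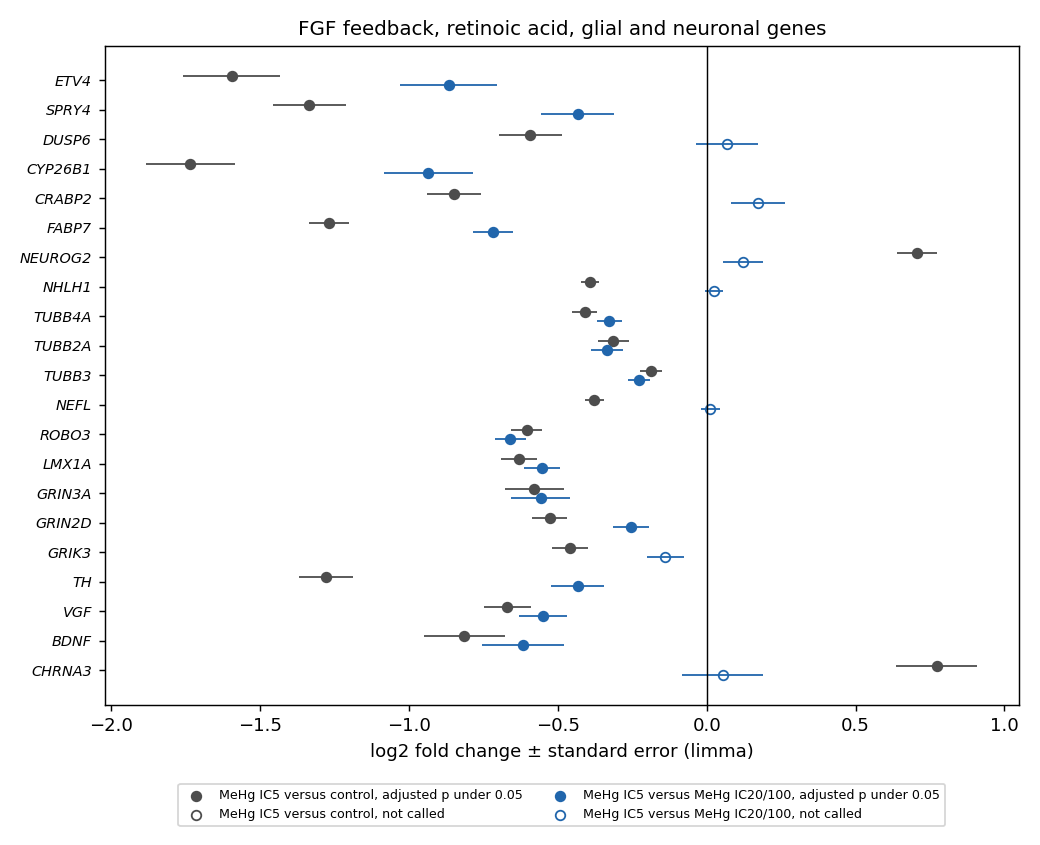
Log2 fold changes with standard errors (limma) of 21 genes of FGF feedback, retinoic acid handling, glia and neurons, for MeHg IC5 versus control in grey and versus MeHg IC20/100 in blue, filled where the adjusted p is under 0.05. ROBO3 (-0.61 and -0.66) and TUBB2A (-0.31 and -0.34) are as low against one as against the other, while NEFL (-0.38 and 0.01) and NEUROG2 (0.71 and 0.12) differ against control alone.

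Proneural factors, which commit progenitors to the neuronal fate, were divided. NEUROG2 had 264 to 344 normalised counts (median 291) in MeHg IC5 and 138 to 205 (median 183) in control. All MeHg IC5 libraries were above all controls (log2 0.71 ± 0.07, adjusted p 1.57e-13 by limma). NEUROG1 averaged 187 ± 30.5 in MeHg IC5 and 120 ± 22.8 in control (log2 0.66), and NEUROD4 419 ± 68.1 and 315 ± 50.1 (log2 0.39). NHLH1, expressed in newly born neurons, was lower at 1761 ± 71.2 in MeHg IC5 and 2310 ± 97 in control (log2 -0.39). The growth cone protein GAP43 was lower at log2 -0.26. Of 20 members tested 3 were higher and 7 lower. DCX, a microtubule protein of migrating neurons, was lower by log2 -0.18 at an adjusted p of 0.0457 by limma. That call was lost without any single library other than replicates 4 and 5 of MeHg IC5 and replicates 7 and 8 of control (adjusted p up to 0.11 by limma). Neither NEUROG1 nor NEUROG2 was called against MeHg IC20/100 (log2 0.12 each).

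Genes of DNA replication were higher than in control by small amounts, and the count rested partly on 1 library. Of 24 members 11 were higher and 0 lower, with a median log2 fold change of 0.26, but without replicate 4 of MeHg IC5 only 5 were called. The rise was not seen against MeHg IC20/100, where 0 of the 24 were higher and 0 lower (median log2 fold change -0.07). Set against the mean of the 3 IC20/100 groups in DMSO, 0 were higher and 1 lower (median -0.11). PCNA, the polymerase clamp, had 1435 to 2195 normalised counts (median 1510) in MeHg IC5 and 1106 to 1484 (median 1240) in control (log2 0.33). The highest value was that of replicate 4, and the other 7 libraries of MeHg IC5 had 1435 to 1622. MCM3, of the replicative helicase, averaged 1619 ± 99.3 in MeHg IC5 and 1286 ± 140 in control (log2 0.34). Of 22 genes of mitosis 4 were higher and 0 lower than in control, and 1 without replicate 4 of MeHg IC5. Against MeHg IC20/100, 7 of the 22 were higher and 0 lower, with 5 higher without that replicate and 0 in the lowest of 28 alternatives. Against the mean of the 3 IC20/100 groups in DMSO, 8 were higher and 0 lower. MKI67, a nuclear protein of cycling cells, averaged 3971 ± 532 in MeHg IC5 and 3210 ± 243 in control (log2 0.29). KIF20A was higher at log2 0.36, a call lost without replicate 4 of MeHg IC5 (adjusted p 0.059) or replicate 3 of control (0.056), both by limma.

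Ligands and receptors of the WNT pathway moved in both directions, with 4 of 21 members higher and 8 lower. The ligand WNT7B had 4840 to 6186 normalised counts (median 5883) in MeHg IC5 and 7324 to 8259 (median 7804) in control (log2 -0.44 ± 0.04, adjusted p 9.29e-14 by limma). The receptors FZD5 (508 ± 59.9 in MeHg IC5 and 364 ± 38.7 in control, log2 0.46) and FZD10 (1693 ± 60.5 and 1306 ± 112, log2 0.38) were higher, and all 3 genes were without overlap. LGR5, a receptor that strengthens WNT signals, was lower at 158 ± 73.9 in MeHg IC5 and 316 ± 108 in control (log2 -1.04). In the Notch pathway 2 of 18 were higher (JAG1, a ligand, at log2 0.35, and HES1) and 2 lower (LFNG, which modifies the receptor, at -0.36, and NOTCH1). Compared with MeHg IC20/100, 6 of the 18 were lower and 1 higher, where 2.6% of all genes were lower. The lower count was 0 in the lowest of 28 alternatives. Compared with the mean of the 3 IC20/100 groups in DMSO, 6 were lower and 1 higher, where 3.85% of all genes were lower. LMX1A, a factor of roof plate and midbrain dopamine neurons, had 376 to 442 (median 395) in MeHg IC5 and 593 to 689 (median 619) in control (log2 -0.63 ± 0.06, adjusted p 2.56e-13 by limma). It was as separate from MeHg IC20/100, at 592 ± 37.8 (log2 -0.55 ± 0.06, adjusted p 1.78e-10 by limma), as from control. Its relative LMX1B was lower by log2 -0.17 against control and -0.35 against MeHg IC20/100. HOXB3, a hindbrain gene, had 3.3 to 12.3 (median 7.06) in MeHg IC5 and 9.73 to 52.6 (median 32.4) in control (log2 -1.77).

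Where markers of glia and of other cell types were called against control, they were lower. CSPG4 (log2 -0.88) and MYRF (-0.84) of the oligodendrocyte lineage fell from low levels, and 5 of 10 members of that list were lower (3 in a fit of only the 16 libraries). Of 18 astrocyte markers 4 were lower and 0 higher. S100B, a calcium-binding protein, averaged 11.3 ± 3.85 in MeHg IC5 and 19.4 ± 3.34 in control (log2 -0.71), and SPARCL1 186 ± 35.6 and 299 ± 59.1 (log2 -0.67). The summed level of the 20 astrocyte markers was 19463 to 23678 in MeHg IC5 and 22282 to 24628 in control.

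The 13 genes of mesenchyme and matrix summed to 3199 to 3761 in MeHg IC5 and 3737 to 4744 in control, with 4 of 12 tested lower (2 in a fit of only the 16 libraries), such as ACTA2, a smooth muscle actin (log2 -0.61). The 9 endothelial genes summed to 43.3 to 92.4 and 58.6 to 102, and the 13 genes of microglia and blood to 12 to 28.1 and 9.73 to 57.8, in the same order. Of the microglia and blood genes 5 were at 0 in all 16 libraries and 10 under 10 counts. Of 7 genes of pluripotent cells tested, 0 were called. Whether these other cells had a part in any list above was not tested.

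Further single genes with large changes lay outside the lists. ADAMTSL1, a matrix protein, had 54 to 118 normalised counts (median 84.7) in MeHg IC5 and 181 to 344 (median 243) in control (log2 -1.56 ± 0.18, adjusted p 4.57e-10 by limma), without overlap. The receptor kinase ALK averaged 49.4 ± 8.62 in MeHg IC5 and 87 ± 16.9 in control (log2 -0.79), and differed as much from MeHg IC20/100, at 84.8 ± 20.4 (log2 -0.76), with no overlap in either comparison. RPRML was higher at 86.2 ± 15.3 in MeHg IC5 and 52.9 ± 7.94 in control (log2 0.72), and the lysosomal gene CLN3 at 358 ± 74.7 and 229 ± 45.2 (log2 0.66). Of 13 mitochondrially encoded genes 3 were higher than in control, MT-ND1 (log2 0.25), MT-CO3 (0.21) and MT-CYB (0.19), and 0 lower. Compared with MeHg IC20/100, 0 of the 13 were higher and 2 lower. MT-CO3 was 1 of these, at log2 -0.18 (adjusted p 0.038 by limma), a call that changed in 11 of 28 alternatives. Of 25 cholesterol synthesis genes 8 were lower, such as HMGCS1 (-0.20), and 1 higher; with no term for the sequencing run 5 were lower. Among 26 genes of hypoxia and glycolysis 3 were higher than in control, LDHA at log2 0.41 among them, and 2 lower, with VEGFA at -0.37. Compared with MeHg IC20/100, 5 of the 26 were higher, VEGFA at log2 0.23 among them, and 0 lower. That higher count was 0 in the lowest of 28 alternatives.

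Against MeHg IC20/100 as a whole, 54 genes (0.268%) were at least 1.5-fold higher and 59 (0.293%) at least 1.5-fold lower. The FGF feedback genes were on the lower side, with 5 of 18 lower and 0 higher. The count was 3 without replicate 8 of MeHg IC5 or replicate 2 or 4 of MeHg IC20/100, and 0 in the fit of only these 16 libraries (1 without replicate 8 of MeHg IC20/100). ETV4 averaged 46.7 ± 15.2 in MeHg IC5 and 80.7 ± 11.2 in MeHg IC20/100 (log2 -0.87 ± 0.16, adjusted p 0.000162 by limma), and CYP26B1 262 ± 82.9 and 494 ± 162 (log2 -0.94 ± 0.15, adjusted p 5.96e-06 by limma). FABP7 averaged 1375 ± 108 in MeHg IC5 and 2348 ± 753 in MeHg IC20/100, without overlap (log2 -0.72 ± 0.07, adjusted p 6.11e-13 by limma). CYP26B1 and FABP7 each lost the call in 1 of 28 alternative fits. DUSP4 was lower by a small amount, at 1285 ± 47.3 in MeHg IC5 and 1428 ± 67.7 in MeHg IC20/100 (log2 -0.15, adjusted p 2.16e-05 by limma), and like ETV4 kept its call with each single library left out. Both lost it in the fit of only the 16 libraries, also without replicate 8 of MeHg IC20/100 (adjusted p 0.086 for ETV4 and 0.10 for DUSP4 by limma). ETV5 (log2 -0.95) lost its call without any replicate of MeHg IC5 but 4, or without replicate 2, 4, 5 or 6 of MeHg IC20/100 (adjusted p up to 0.13 by limma). So did SPRY4 (-0.43) without replicate 5 or 8 of MeHg IC5 or replicate 2 or 4 of MeHg IC20/100 (adjusted p up to 0.073 by limma), and FGF17 (-0.55) without replicate 4 of MeHg IC5 (adjusted p 0.067 by limma). DUSP6, ETV1 and CRABP2, which were lower than in control, were not called here (log2 0.07, 0.02 and 0.17).

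LIN28A, which binds RNA and marks early progenitors, was the reverse case. It had 164 to 220 normalised counts (median 184) in MeHg IC5 and 162 to 219 (median 186) in control and was not called (log2 -0.02). In MeHg IC20/100 it averaged 104 ± 11.4, below all MeHg IC5 libraries at 187 ± 19.6 (log2 0.82 ± 0.08, adjusted p 2.77e-13 by limma). NES was lower in MeHg IC5 than in MeHg IC20/100, at 14621 ± 921 and 17266 ± 2015 (log2 -0.23, adjusted p 6.1e-05 by limma).

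For a few genes of large fold change, libraries of 1 group fell into high and low values. GALR1, a galanin receptor, had 400.8, 508.7 and 466 normalised counts in replicates 3, 4 and 8 of MeHg IC5, 24.9 to 38 in the other 5, and 12.5 to 31.9 in control. Its log2 fold change was 2.00 ± 0.59 (adjusted p 0.0171 by limma), and the call was lost without replicate 3 (0.067), 4 (0.076) or 8 (0.067) of MeHg IC5, all by limma. The spread within MeHg IC5 was thus as large as the difference between the groups. REXO1 had 4776 and 4239 in replicates 1 and 6 of MeHg IC5, 642 to 1036 in the other 6, and 636 to 948 in control, and its call was lost without either of these 2 replicates (adjusted p 0.09 and 0.13 by limma). ADAMTS16 had 634.7, 1078 and 1356 in replicates 3, 5 and 6 of MeHg IC5 and 24.6 to 32.7 in the other 5, against 23 to 37.8 in control, and was not called (adjusted p 0.052 by limma), though it was without replicate 1, 2, 4, 7 or 8 of MeHg IC5 (adjusted p down to 0.019 by limma). CDKL1 had 259 in replicate 6 of MeHg IC5 and 12.7 to 30.8 in the other 7, against 22 and 22.8 in replicates 4 and 1 of control and 206 to 581 in the other 6. Its adjusted p was 0.05 by limma, and the call was lost without any single library other than replicate 6 of MeHg IC5 and replicates 1 and 4 of control.

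GDF1 was listed at 0 in replicates 3, 4 and 6 of control, had 68 to 393 in the other 5 and 78 to 347 in MeHg IC5, with a log2 fold change of 3.28 that depends on the zeros. It overlaps the gene CERS1, so that reads may have been divided between both. FAM72B had 141 to 510 in MeHg IC5 and 157 to 275 in control (log2 0.84), a call lost without replicate 1 (adjusted p 0.053) or 4 (0.070) of MeHg IC5, both by limma. It is 1 of several nearly identical copies. The changes of these 6 genes are given as values per library and not as group effects.

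**Figure D5:**
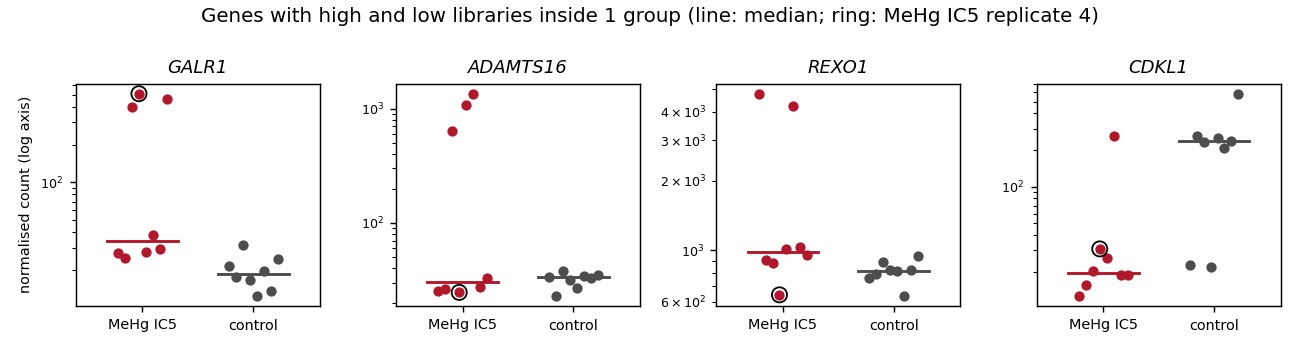
Normalised counts of 4 genes in each library on log axes, MeHg IC5 at left and control at right, with a line at the median and a ring around replicate 4 of MeHg IC5. GALR1 has 3 and ADAMTS16 3 high libraries of MeHg IC5, REXO1 has 2, and CDKL1 has 1 high library of MeHg IC5 and 2 low ones of control.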

How the data were processed

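Polyadenylated RNA from 96 libraries was sequenced by the submitters, with Salmon 1.3.0, DESeq2 1.30.0 and GRCh38 named in the submitters' processing notes. The deposited table holds a normalised signal per gene, which the authors made from gene counts scaled with 1 size factor for each library. Dividing by the step between low values gave whole reads for 100% of values within 0.001.

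The 88 day 10 libraries were fitted with limma 3.58.1 (R 4.3.3, trend) on log2(value + 2), with terms for 11 groups and 6 sequencing runs and no further scaling, for the 20136 genes that reached a value of 10 in 8 or more libraries. Fold changes are on that scale, which understates those of low genes. P-values were adjusted by Benjamini-Hochberg. Groups came from the labels, and the test recovered known changes in simulated data. The simulated data held no run effects and no library made to stand apart, unlike the data described here. Alternatives were edgeR 4.0.16 and DESeq2 1.42.0 on recovered reads, TMM scaling, other pseudocounts and filters, no run term, a replicate block, fits of only the groups compared, and each library left out. Within a group no pair of libraries agreed within sampling noise (lowest chi-square per degree of freedom 18.4 in MeHg IC5 and 19.4 in control).

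Genes named are the 12 largest rises and falls of at least 1.5-fold against control with a mean of at least 50, the 8 largest in the other comparisons, up to 6 called members of each of 39 lists and fixed markers; members not called and genes with split values are named besides. Members and lists were chosen with earlier results of these data known. Positions are GENCODE 29 and promoters RefSeq GRCh38.p14.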

Additional observations from a re-analysis of the deposited data

Results flagged for a closer look

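Replicate 8 of MeHg IC20/100 had a root mean square log2 residual of 0.7188, far from the other libraries of its group. Among 143 named genes in MeHg IC5 and in control, 31 of 286 sets of 8 libraries had 1 library far from the others, 19 in MeHg IC5 and 12 in control, where chance flags about 5% of sets.

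Replicate 4 of MeHg IC5 was that library for 14 genes. It was high for ETV5 (78.825 normalised counts), HES1 (705.73), NES (16667), NPTX2 (332.54), NEUROD4 (582.56) and PCNA (2194.8). It was low for NOTCH1 (5112.5), TRIB3 (183.51), CDKN1A (907.72), AKR1C1 (497.58), GRIN1 (192.14), GRIN2D (546.85), WNT7B (4840.3) and LFNG (368.26). Other libraries of MeHg IC5 stood apart for GDF15 (147.7 in replicate 2), NQO1 (107.77), CHRNA3 (425.64) and LGR5 (328.74) in replicate 1, and CDKL1 (258.74) in replicate 6.

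In control, replicate 7 stood apart for SLC7A11 (439.59), PMAIP1 (179.92), HSP90B1 (7972.9) and CLN3 (333.58), and replicate 8 for MT3 (43.531), GDF1 (392.62) and CDKL1 (580.97). Replicate 5 did so for GDF15 (603.37) and DBH (26.698), replicate 1 for GRIN1 (418.9), replicate 4 for RPRML (35.773) and replicate 6 for GABRG3 (410.83).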

How the results depend on the processing

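The 3 counts of called genes stayed within 1.5 times of those reported under other pseudocounts and filters, no run term, TMM, edgeR and DESeq2. The exceptions were fits of only the groups compared, which called 23 genes against MeHg IC20/100 (212 also without its replicate 8) and 876 against the 3 IC20/100 groups in DMSO. Leaving out 1 library gave 1825 to 2222 genes against control, 831 to 1350 against MeHg IC20/100 and 1282 to 2109 against the 3 groups. The lowest counts were without replicate 4 of MeHg IC5 for the first 2 and without its replicate 6 for the last, and the cause was not tested. Without replicate 8 of MeHg IC20/100, which enters the shared spread, 2946 genes were called against control. No named gene changed direction with its call. Besides the losses without single libraries, calls against control were lost in the fit of only the 16 libraries for RXRG, SLC7A11, HERPUD1, MT2A, PGD, TPH1, NEFH, ARC, KIF20A, GALR1 and REXO1 (adjusted p by limma 0.051 for HERPUD1 to 0.23 for MT2A), and with edgeR or DESeq2 for MT2A, AKR1C1, DNAJB1, GDF1 and CDKL1 (adjusted p 0.051 for AKR1C1 to 0.10 for CDKL1). With no run term they were lost for SLC7A11, PGD, DNAJB1 and CDKL1, and with no filter or a smaller pseudocount for GDF15, ATF4, SLC7A11, PGD, AKR1C1, DNAJB1, NEFH, DCX and CDKL1. ADAMTS16, not called in the reported fit, was called by edgeR (adjusted p 0.000585) and DESeq2 (5.39e-06). edgeR called 2210, 1097 and 1594 genes in the 3 comparisons, and DESeq2 2327, 1326 and 1728. Among calls against MeHg IC20/100, those of FABP7, CYP26B1, TUBB4A, TUBB2A, VGF, UNC5B, CDKN1A and ALK were each lost in 1 of 28 alternatives. Those of TH and NES were each lost in 2 of 28, and that of GRIN2D in 3 of 28.

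The replicate numbers did not pair MeHg IC5 with control, since same-numbered libraries correlated at -0.00445 to 0.0296, with 0 of 8 closest to their own number. Between MeHg IC5 and MeHg IC20/100 same-numbered libraries correlated at -0.021 to 0.122, with 4 of 8 closest to their own number. An absence of pairing was not shown there, and the reported fit has no term for it. With a replicate block 2409, 1219 and 1731 genes were called, and the calls of GDF15 (adjusted p 0.055) and CDKL1 (0.056) against control were lost, both by limma. Genes of low counts, such as the metallothioneins, are limited by depth.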
